A study of Mus musculus with 214 samples.

Results

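N-nitrosodimethylamine (NDMA) is inert until a cytochrome P450 hydroxylates its methyl group, and 6 liver genes of that step are described here, Cyp2e1, Cyp2a4, Cyp2a5, Cyp2a12, Por and Cyb5a. They were taken by gene symbol, and all 6 were present among the 18647 genes measured in wild-type (WT) livers and the 19540 measured in Mgmt-/- livers, which together list 19900 genes. CYP2E1 is the main enzyme that activates NDMA, and it sits in the pericentral hepatocytes, the cells around the central vein where the DNA-methylating product forms. Enzymes of the CYP2A subfamily also act on nitrosamines. POR hands electrons from NADPH to every microsomal P450, and cytochrome b5, the product of Cyb5a, can pass on a further electron and speeds several P450 reactions.

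Liver tissue of C57BL/6 mice, male and female, was profiled by 3′-end RNA sequencing, and all mice of both genotypes carried the RaDR R/R recombination reporter and the gpt g/g mutation reporter. Mgmt-/- mice lack O6-methylguanine-DNA methyltransferase in every cell, so no group has the loss limited to hepatocytes. Pups received saline or NDMA by intraperitoneal injection, 3.5 mg/kg at 8 days of age and 7 mg/kg at 15 days of age, and livers were collected 1, 2 and 5 days, 10 weeks and 10 months after the second injection. In that order, the NDMA and saline groups held 26 and 21, 8 and 8, 8 and 7, 8 and 8, and 13 and 10 WT mice. The Mgmt-/- groups held 12 and 12, 8 and 7, 8 and 8, 8 and 8, and 13 and 12 mice. Sequencing depth ran from 150038 to 4791649 reads per library in WT (median 1700411) and from 713584 to 7740710 in Mgmt-/- (median 2306713.5). Values are normalized read counts, scaled separately in each genotype, so levels are compared within a genotype. One gene's level is not compared with another's, because a 3′ read count depends on how well each transcript end is captured. RNA came from a small piece of each liver with all its cell types, and where the piece was cut is not given. A fall in a transcript cannot be told apart from a fall in the number of cells that carry it.

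In GRCm38, Cyp2e1 (ENSMUSG00000025479.9) lies at chr7:140763739-140774987, and Por (ENSMUSG00000005514.14) at chr5:135670033-135735326. The 3 Cyp2a genes lie together on chromosome 7, Cyp2a4 (ENSMUSG00000074254.4) at chr7:26307169-26315088, Cyp2a5 (ENSMUSG00000005547.14) at chr7:26835305-26843548 and Cyp2a12 (ENSMUSG00000060407.6) at chr7:27029081-27037375. These 5 are protein-coding genes on the plus strand. Cyp2a4 and Cyp2a5 are near-identical copies, and the stretch just before their annotated starts shows how alike they are. It is printed because these neighbors, counted apart, moved in opposite directions at day 1 after NDMA. The sequences are from RefSeq (GRCm38.p6), chr7:26306943-26307158 for Cyp2a4 and chr7:26835089-26835304 for Cyp2a5, plus strand, 5′ to 3′, and capitals mark the bases that differ.
Cyp2a4: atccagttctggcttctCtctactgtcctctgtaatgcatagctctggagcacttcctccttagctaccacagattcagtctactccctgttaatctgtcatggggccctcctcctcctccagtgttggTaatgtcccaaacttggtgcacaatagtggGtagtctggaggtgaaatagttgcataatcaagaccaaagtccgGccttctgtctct
Cyp2a5: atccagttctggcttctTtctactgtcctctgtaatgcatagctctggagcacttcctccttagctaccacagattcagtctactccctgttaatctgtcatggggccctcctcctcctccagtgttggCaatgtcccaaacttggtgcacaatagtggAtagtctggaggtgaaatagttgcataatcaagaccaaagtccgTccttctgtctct
Of the 216 bases, 212 were identical (98.1%) and 4 differed. Both hold the letters GTTAAT known from binding sites of HNF1, which were found on either strand in 6.43% of the 32851 RefSeq windows of 250 bases before a gene start. The letters TTATGTAA (a DBP site, in 0.819% of windows), CTTTGAT (a TCF site, 3.21%) and TGGACTTTG (an HNF4 site, 0.384%) were not in this window of the 5 members searched, which leave out Cyb5a. These windows end at the RefSeq start, which for all 5 lies inside the gene span given above, and for Por far inside it. The likeness extends to the read ends: 37.0% of the 451 words of 50 bases in the last 500 bases of the Cyp2a4 transcript also occur in Cyp2a5, and 12.4% the other way. Reads of the pair can therefore be exchanged in counting, and Cyp2a12 shares 16.4% of its words with Cyp2a22 but none with Cyp2a4 or Cyp2a5.

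Several libraries stood apart from their labels. In Mgmt-/- livers, 2 saline libraries of day 5 (D389011 and D389017) held Kap, a kidney transcript, at 6147 and 7562 against at most 13.891 in any other library. They were left out by the rule that chose the members, which dropped day 5 saline libraries with Kap over 1000. Their Cyp2e1 was 71.8 and 61.5, and Cyp2a4 was 0 in both. In WT livers, 5 libraries held Cdkn1a, the p21 gene induced by DNA damage, nearer on the log2 scale to the median of the other treatment. Saline D209074 (day 1), D215004 (day 2) and D215012 (day 5) had Cdkn1a at 358.6, 212 and 109, where saline medians were 15.1, 16.8 and 9.54. NDMA D209072 and D209077 (day 1) had it at 30.3 and 16.3 against an NDMA median of 217.5, and the sex genes of these 2 libraries also went against their labels. On the linear scale NDMA D279046 and D279047 (day 1) were also nearer to saline, with Cdkn1a at 104 and 61.8 and Cyp2e1 at 5529 and 7339. All of these stayed in the main fit. Without D209074, D215004, D215012, D279046 or D279047, or without the pair of mismatched sex, none of the 6 genes gained or lost its call in WT livers of the same day. For NDMA against saline, the values without D209074, D215004, D215012 or the pair of mismatched sex stand beside the changes that passed. The values without D279046 or D279047 are not printed, and none are given for the saline changes with age. Another 4 WT libraries, NDMA females of day 2, day 5, week 10 and month 10, had under 300000 reads. In all other libraries hepatocyte markers were abundant, and kidney markers were at or near 0.

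Cyp2e1 fell after NDMA in Mgmt-/- livers at every collection, and the fall shrank with time. At day 1 its normalized count ran from 154 to 1447 (median 223) in the 12 NDMA mice and from 2160.0 to 7682 (median 4338) in the 12 saline mice. At day 2 it ran from 371 to 1709 (median 687) with NDMA and from 3154 to 10163 (median 6514) with saline. At day 5 it ran from 383 to 2246 (median 1708) with NDMA and from 3851 to 12909 (median 7619.7) in the 6 saline mice kept. At none of these collections did the NDMA and saline mice overlap, and the NDMA mean was 0.0921, 0.121 and 0.205 of the saline mean. The groups still did not overlap at week 10, with 797 to 2728 (median 1530.4) after NDMA and 3189 to 8089 (median 5285) after saline. At month 10 they did, and NDMA mice ran from 993 to 3766 (median 2295) against 2097 to 4705 (median 4024), with 6 of the 13 NDMA mice below the lowest saline mouse. The log2 fold changes, fitted by limma on log2(count + 1) with sex and library batch, were -3.76 ± 0.35 (SE), -3.13 ± 0.35, -2.31 ± 0.40, -1.74 ± 0.24 and -0.86 ± 0.18 from day 1 to month 10, with adjusted p between 4.69e-08 and 0.00208. The month 10 fold had the same size in each sex, -0.86 in males and -0.87 in females, and with the fewer mice neither passed alone (limma adjusted p = 0.0544 and 0.0512). With the kidney-like libraries kept, the day 5 value was -0.64 and did not pass.

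**Figure D1:**
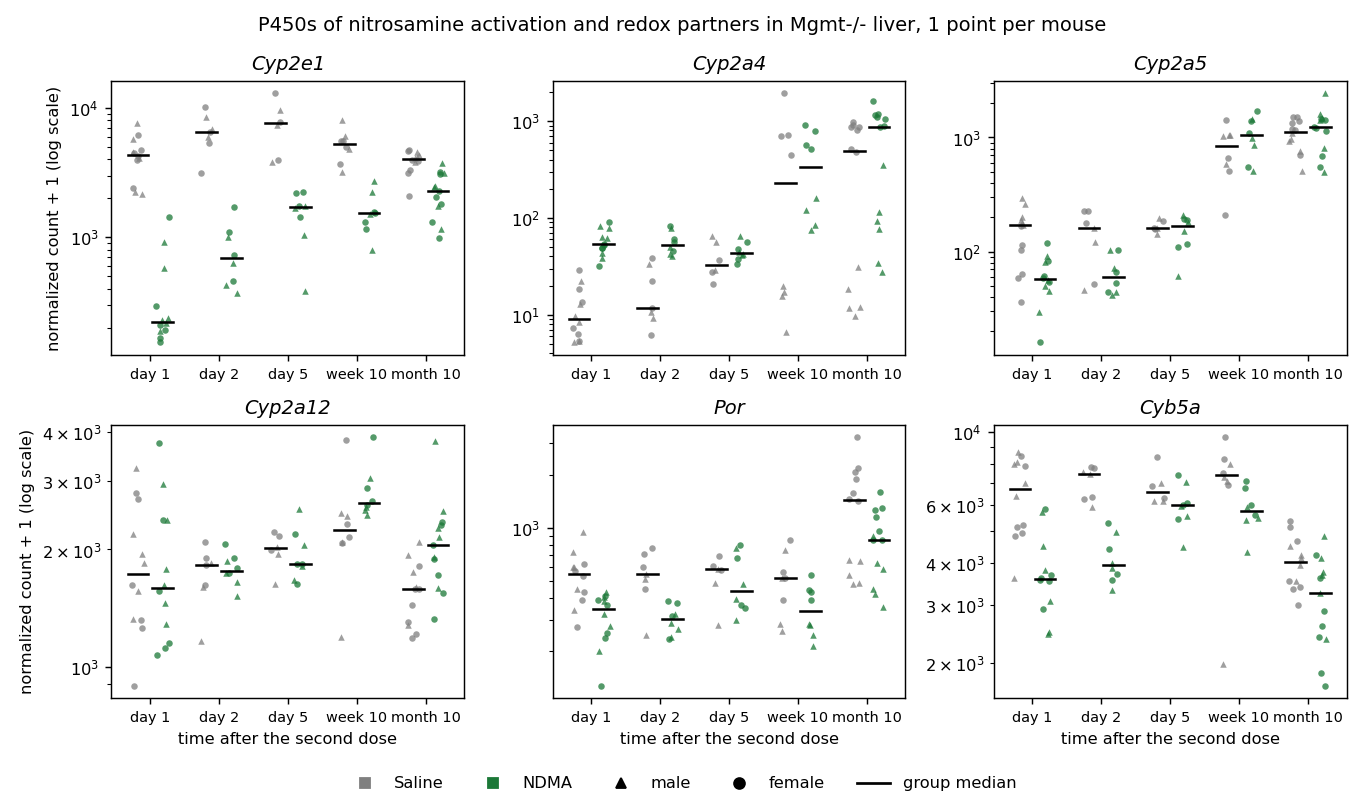
Normalized read count plus 1 (log axis) of the 6 genes in each Mgmt-/- liver by collection, leaving out the 2 kidney-like saline libraries of day 5. Grey is saline, green is NDMA, triangles are males, circles are females and the line is the group median. The Cyp2e1 groups are apart at the first 4 collections, from 223 against 4338 at day 1, and overlap at month 10.

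In WT livers Cyp2e1 fell at the 3 early collections and did not pass at week 10 or month 10. At day 1 it ran from 121 to 8031 (median 545) in the 26 NDMA mice and from 262 to 13239.9 (median 4962) in the 21 saline mice. At day 2 it ran from 694 to 2989 (median 1473) against 1267 to 10073 (median 7750.0), and at day 5 from 1009 to 3719 (median 2037) against 1068 to 11307 (median 4788). The groups overlapped at each, and in each the lowest saline mouse was the one with high Cdkn1a named above. The log2 fold changes of Cyp2e1 were -2.28 ± 0.38 (limma adjusted p = 1.17e-05), -2.07 ± 0.29 (adjusted p = 0.000403) and -1.42 ± 0.29 (adjusted p = 0.00897). Without D209074, D215004 and D215012 in turn they were -2.49, -2.34 and -1.67, and all passed, as did the day 1 value without the 2 libraries of mismatched sex (-2.5). The day 5 fall of Cyp2e1 did not pass with treatment as the only term (-1.31, adjusted p = 0.19). In batch 200724Eng alone, which held the females, neither day 2 (-2.12, adjusted p = 0.337) nor day 5 (-1.05, adjusted p = 0.786) passed, while in batch 200710Eng, the males, both did. Batch 200724Eng had 4 mice per treatment on each of these days, and its saline mice included D215004 and D215012. At week 10 Cyp2e1 was 3532 to 9472 (median 5317) with NDMA and 2314 to 8229 (median 4881) with saline, and at month 10 it was 1932 to 4893 (median 3241) and 2272 to 4979 (median 3199.8). The Cyp2e1 log2 differences there were 0.25 ± 0.16 and -0.06 ± 0.14 (adjusted p = 0.91 and 0.899). At WT day 2, day 5 and week 10 each library batch held 1 sex, so batch and sex cannot be told apart.

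The spread of Cyp2e1 among WT mice at day 1 differed by library batch. In batch 191212Eng it was 121 to 1569 (median 381) with NDMA and 1704 to 3950 (median 3039) with saline. In batch 210901Eng it was 355 to 8031 (median 1880) with NDMA and 6918 to 13239.9 (median 8787) with saline. Batch 200803Eng held the saline mouse D209074 and both NDMA libraries of mismatched sex, and there the ranges were 317 to 3122 and 262 to 4985. Within the batches the Cyp2e1 log2 fold change was -3.00, -2.12 and -1.29 respectively, and the last did not pass (limma adjusted p = 1.0). Within WT NDMA mice of day 1, Cyp2e1 was lower where Cdkn1a was higher, with Pearson r = -0.73 and Spearman rho = -0.85 over 26 mice. Each had a two-sided permutation p = 1e-05, the smallest its resamples can give (adjusted over the 2 genotypes, 2e-05). Without the 2 mice farthest from the Cyp2e1 median r was -0.71, and without the 2 libraries of mismatched sex it was -0.865 over 24 mice (permutation p = 1e-05). It was -0.72 in the 8 mice of batch 191212Eng (exact permutation p = 0.0344) and -0.84 in the 12 of 210901Eng (permutation p = 0.00032), while the 6 mice of 200803Eng fell into 2 clusters and get no r. In the 12 Mgmt-/- NDMA mice of day 1 r was -0.46 (permutation p = 0.134) and rho was -0.20 (permutation p = 0.542), and without the 2 farthest mice r was -0.22. The 8 of them in batch 191212Eng had r = -0.81 (exact permutation p = 0.048) but rho = -0.48 (exact permutation p = 0.243), and 1 of these mice, at a Cyp2e1 of 1447, stood far from the others. All mice received the same dose, and the relation is between transcripts of 1 liver sample.

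**Figure D2:**
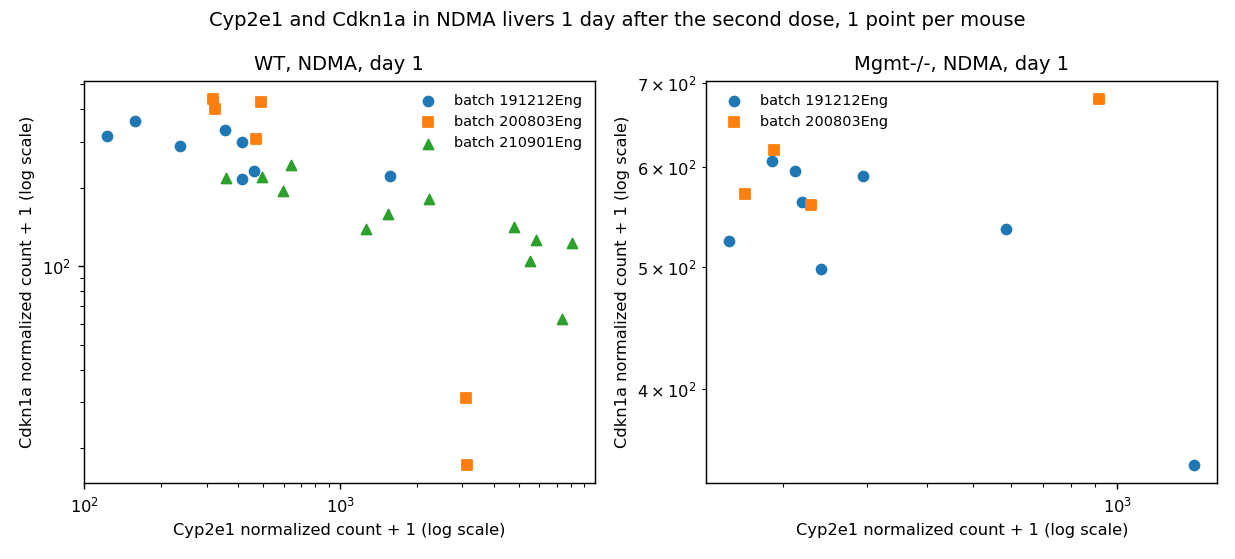
Cyp2e1 against Cdkn1a, both as normalized read counts on log axes, in each NDMA-treated mouse of day 1, WT left and Mgmt-/- right, with color and marker giving the library batch. Cyp2e1 runs from 121 to 8031 in the 26 WT mice and is lower where Cdkn1a is higher, and it runs from 154 to 1447 in the 12 Mgmt-/- mice.

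Cyp2a4 encodes a steroid 15-alpha-hydroxylase that in adult mouse liver is known as female-biased. Counted apart from Cyp2a5, it rose after NDMA at day 1 in both genotypes. In Mgmt-/- livers it ran from 30.9 to 90.5 (median 52.6) with NDMA and from 4.18 to 27.9 (median 8.12) with saline at day 1, and at day 2 from 39.9 to 82.5 (median 52.1) against 5.14 to 37.5 (median 10.6). Neither pair of groups overlapped, and the Cyp2a4 log2 fold changes were 2.46 ± 0.23 (limma adjusted p = 1.51e-10) and 1.86 ± 0.35 (adjusted p = 0.000639). At day 5 the Cyp2a4 groups overlapped almost fully, 32.8 to 64.4 against 19.6 to 64.5, and the log2 difference of 0.33 did not pass (adjusted p = 0.297). In WT livers it ran from 6.38 to 94.0 (median 35.8) with NDMA and from 2.09 to 28.8 (median 7.65) with saline at day 1, with 15 of the 26 NDMA mice above the highest saline mouse. That saline mouse was again D209074, at 28.8, and the Cyp2a4 log2 fold change was 1.83 ± 0.25 (adjusted p = 1.11e-07) with it and 1.90 without it, and 1.92 without the pair of mismatched sex. At WT day 2 and day 5 the groups overlapped, and the Cyp2a4 log2 differences of 0.31 and 0.29 did not pass (adjusted p = 0.584 and 0.711). In batch 200803Eng alone the WT day 1 value was 1.03 and did not pass.

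Cyp2a5, the mouse counterpart of the human nitrosamine-activating CYP2A6, went the other way in the same livers. In Mgmt-/- mice it ran at day 1 from 14.9 to 119 (median 56.6) with NDMA and from 35.3 to 291 (median 169) with saline. These groups overlapped, with 2 of 12 NDMA mice below the lowest saline mouse, and the Cyp2a5 log2 fold change was -1.23 ± 0.30 (limma adjusted p = 0.00368). At Mgmt-/- day 2 it was 40.2 to 102 (median 58.5) against 45.3 to 224 (median 159.9), and the log2 difference of -0.98 did not pass (adjusted p = 0.0834). It passed without saline D389023 (-1.20) or D389041 (-1.22), and in edgeR (-1.14) and DESeq2 (-1.16). In WT livers Cyp2a5 fell at all 3 early collections in the fit over all batches. The WT groups did not overlap at day 2, 31.6 to 105 (median 78.3) against 116 to 277 (median 202), and the log2 fold change was -1.41 ± 0.23 (adjusted p = 0.000979). At WT day 5 Cyp2a5 was 49.2 to 163 (median 87.6) against 109 to 476 (median 298), -1.56 ± 0.29 (adjusted p = 0.00523), with 5 of 8 NDMA mice below every saline mouse. The WT day 1 fall was the weakest, 11.2 to 300.1 (median 48.8) against 15.7 to 277 (median 76.1), -0.80 ± 0.27 (adjusted p = 0.0285). The highest of these NDMA mice was D209077, of mismatched sex. The Cyp2a5 values were -0.91 without D209074 and -0.91 without the pair of mismatched sex at day 1, -1.50 without D215004 at day 2 and -1.75 without D215012 at day 5, and all passed. In batch 200724Eng alone, the females, Cyp2a5 did not pass at WT day 2 (-1.28, adjusted p = 0.337) or day 5 (-0.97, adjusted p = 0.786), and in batch 200710Eng, the males, it passed at both. The saline females of 200724Eng included D215004 and D215012. Without saline D209068 or D279006 the day 1 value was -0.72 or -0.69 and no longer passed, and with treatment as the only term it was -0.75 and did not pass (adjusted p = 0.0603). In batches 191212Eng and 200803Eng alone it was -0.11 and -0.058 and did not pass, and in 210901Eng alone it passed.

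At week 10 Cyp2a5 was 281 to 636 (median 447) with NDMA and 180.2 to 439.5 (median 247) with saline in WT livers, with 5 of 8 NDMA mice above every saline mouse, and the log2 difference of 0.77 ± 0.20 did not pass (adjusted p = 0.619). In Mgmt-/- livers it was then 509.6 to 1703 (median 1043) against 207 to 1408 (median 840.3), a difference of 0.48 (adjusted p = 0.407). By month 10 the Cyp2a5 groups overlapped in both genotypes, and the differences were 0.12 in Mgmt-/- and -0.07 in WT.

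Because reads of the pair can be exchanged, Cyp2a4 and Cyp2a5 were also summed. The sum did not pass in Mgmt-/- livers at day 1 (log2 difference -0.29, limma adjusted p = 0.356) or day 2 (-0.21, adjusted p = 0.724), or in WT livers at day 1 (-0.08, adjusted p = 0.833). In WT livers the sum fell at day 2 (-1.06, adjusted p = 0.00408) and day 5 (-1.29, adjusted p = 0.01). At Mgmt-/- month 10, where Cyp2a4 alone passed over both sexes, the sum was 0.35 and did not pass (adjusted p = 0.266). The Cyp2a4 rises that passed over both sexes, and the day 1 falls of Cyp2a5, therefore passed only with the pair counted apart. The WT falls of Cyp2a5 at days 2 and 5 were also seen in the sum. In saline livers of day 1 most counts of the sum came from Cyp2a5, so the sum cannot show a rise of Cyp2a4 by itself. Whether reads were exchanged was not tested. The sum was not fitted within 1 sex, so it does not cover the adult males.

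Cyp2a12, another CYP2A enzyme that is also a steroid hydroxylase, showed no change that passed over all mice of a collection. In Mgmt-/- livers it ran at day 1 from 1070.1 to 3754 (median 1589) with NDMA and from 891 to 3233 (median 1731) with saline, and its log2 differences over the 5 collections were between -0.05 and 0.39. In WT livers at day 1 it ran from 891 to 2781 (median 1272) against 437 to 2469.6 (median 1034). That Cyp2a12 difference of 0.47 ± 0.10 had a limma adjusted p = 0.000519 but stayed under the fold threshold of 0.58. It passed in batch 191212Eng alone (0.96, adjusted p = 0.000205), and Cyp2a12 passed lower at WT day 5 in batch 200710Eng alone (-0.88, adjusted p = 0.00172). The highest WT NDMA values of Cyp2a12 on day 2, day 5 and in week 10 were 2377, 2574 and 2690.0, each from the library under 300000 reads, and in the same 3 libraries Cyb5a was the lowest of its group.

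The electron donors fell in Mgmt-/- livers at days 1 and 2, as Cyp2e1 did. Por fell in Mgmt-/- livers from 274 to 941 (median 550.4) with saline to 127 to 434 (median 346) with NDMA at day 1, and from 248 to 769 (median 546) to 234 to 383 (median 303) at day 2. The Por groups overlapped at both, with 4 of 12 and 2 of 8 NDMA mice below the lowest saline mouse, and the log2 fold changes were -0.76 ± 0.17 (limma adjusted p = 0.001) and -0.77 ± 0.17 (adjusted p = 0.00136). The day 1 value of Por was -0.57, under the fold threshold, when libraries were scaled to the same total, and -0.32 in batch 200803Eng alone. In WT livers Por was 91.7 to 536 (median 219.5) against 183 to 627 (median 317) at day 1, and the log2 difference of -0.43 did not reach the fold threshold (adjusted p = 0.0132), although it passed in batch 210901Eng alone (-0.70). At WT day 2 Por was 113 to 329 (median 173) against 208 to 391 (median 279), with 5 of 8 NDMA mice below every saline mouse and a fold change of -0.60 ± 0.16 (adjusted p = 0.0243). It was -0.68 without D215004 and passed. The call was lost in 7 of 16 fits that each left out 1 library (-0.59 to -0.54), and also with treatment as the only term (-0.60, adjusted p = 0.0922), with libraries scaled to the same total (-0.52, adjusted p = 0.0601), without the library under 300000 reads (-0.56, under the fold threshold) and in batch 200724Eng alone (-0.35). In batch 200710Eng alone Por passed. Por did not pass later over all mice in either genotype, but passed at WT day 5 in batch 200710Eng alone (-0.77). At Mgmt-/- month 10 it was 354 to 1600.0 (median 856) with NDMA and 482 to 3258 (median 1435) with saline, and the log2 difference of -0.47 had an adjusted p = 0.0646. In the females alone Por was -0.77 and passed (adjusted p = 0.0387).

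Cyb5a (ENSMUSG00000024646.14), a protein-coding gene on the plus strand of chromosome 18, fell in Mgmt-/- livers at day 1, from 3622 to 8671 (median 6706) with saline to 2448 to 5828 (median 3589) with NDMA, and 7 of 12 NDMA mice lay below every saline mouse. At day 2 the Cyb5a groups did not overlap, 3330.5 to 5305 (median 3944) against 5929.9 to 7819 (median 7451). The Cyb5a log2 fold changes were -0.79 ± 0.15 (limma adjusted p = 6.6e-05) and -0.76 ± 0.11 (adjusted p = 4.31e-06). From day 5 on they were between -0.41 and -0.18 and did not pass, although 6 of 8 NDMA mice of day 5 and 6 of 13 of month 10 lay below every saline mouse. In WT livers Cyb5a was 1675 to 7169 (median 3314) against 3558 to 6923 (median 4963) at day 1, with 14 of 26 NDMA mice below every saline mouse. The WT day 1 log2 difference of -0.53 ± 0.12 had an adjusted p = 0.000716 and stayed under the fold threshold, and it passed in batch 191212Eng alone (-0.74, adjusted p = 0.000215). The later ones were between -0.35 and 0.05. Without the library under 300000 reads the WT day 2 value of Cyb5a was -0.03.

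**Figure D3:**
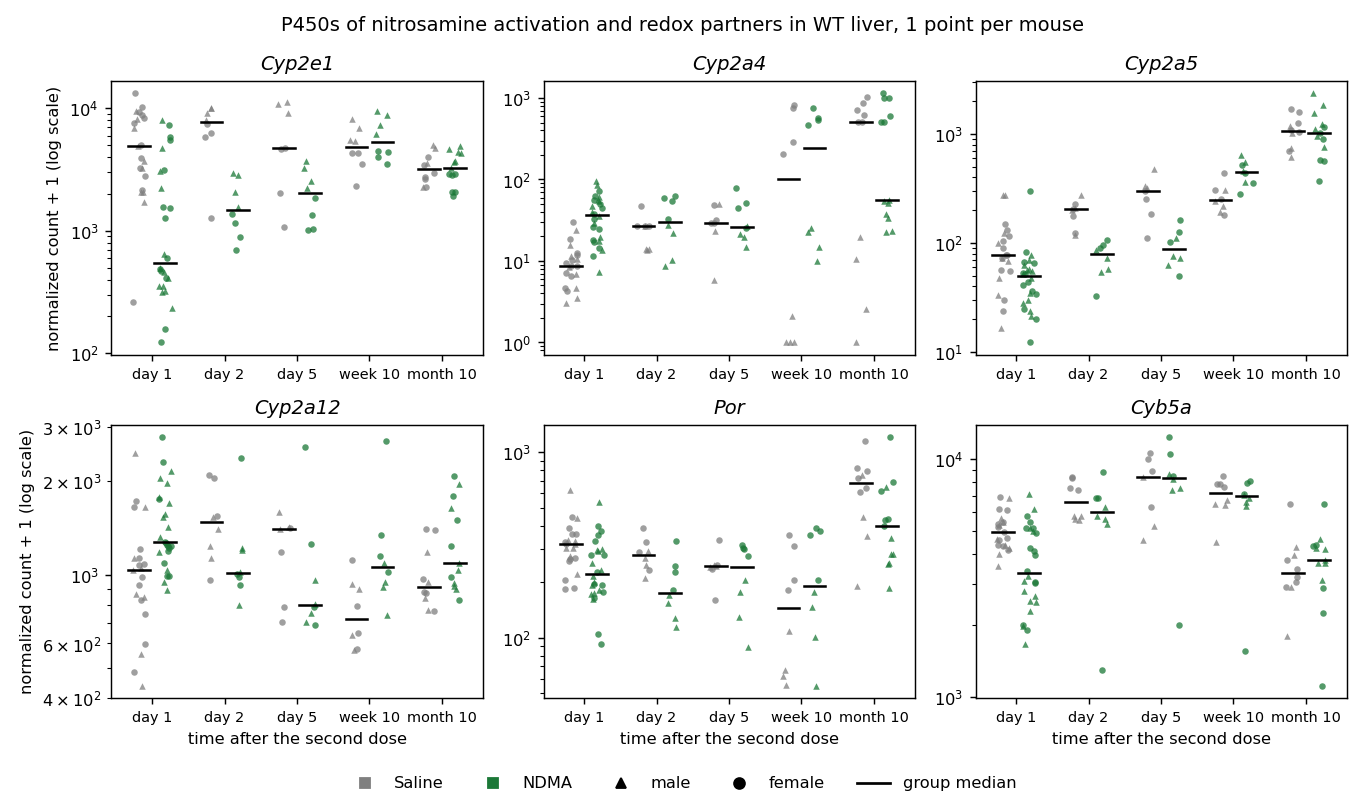
Normalized read count plus 1 (log axis) of the 6 genes in each WT liver by collection, with grey for saline, green for NDMA, triangles for males, circles for females and a line at the group median. Cyp2e1 medians are 545 against 4962 at day 1 and lie close together, 3241 against 3199.8, at month 10.

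A gene passed where its adjusted p was under 0.05 and its log2 fold change over 0.58 in size. Of the 6, 4 passed lower and 1 higher in Mgmt-/- livers at day 1, where 8.64% of the 10055 genes tested passed lower and 9.06% higher. Day 2 gave 3 lower and 1 higher (7.5% and 12.4% of all genes) and day 5 gave 1 lower, Cyp2e1 (6.71% and 11.1%). Week 10 gave Cyp2e1 alone, lower (3.88% and 7.27%), and month 10 gave Cyp2e1 lower and Cyp2a4 higher (2.99% and 4.75%). In WT livers 2 passed lower and 1 higher at day 1 (4.19% and 5.01% of all genes). Day 2 gave 3 lower (2.91% and 3.33%), and day 5 gave 2 lower (1.39% and 2.22%). None passed at WT week 10, where 0% of all genes passed lower and 0.0249% higher, with 350 genes at an unadjusted p under 0.05, or at WT month 10, where limma called 0 genes and 757 had an unadjusted p under 0.05. The median log2 fold change of the 6 genes was -0.78, -0.77, -0.14, 0.07 and -0.15 in Mgmt-/- livers and -0.48, -0.48, -0.23, 0.55 and -0.01 in WT livers. Over all genes tested the medians lay between -0.08 and 0.04.

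**Figure D4:**
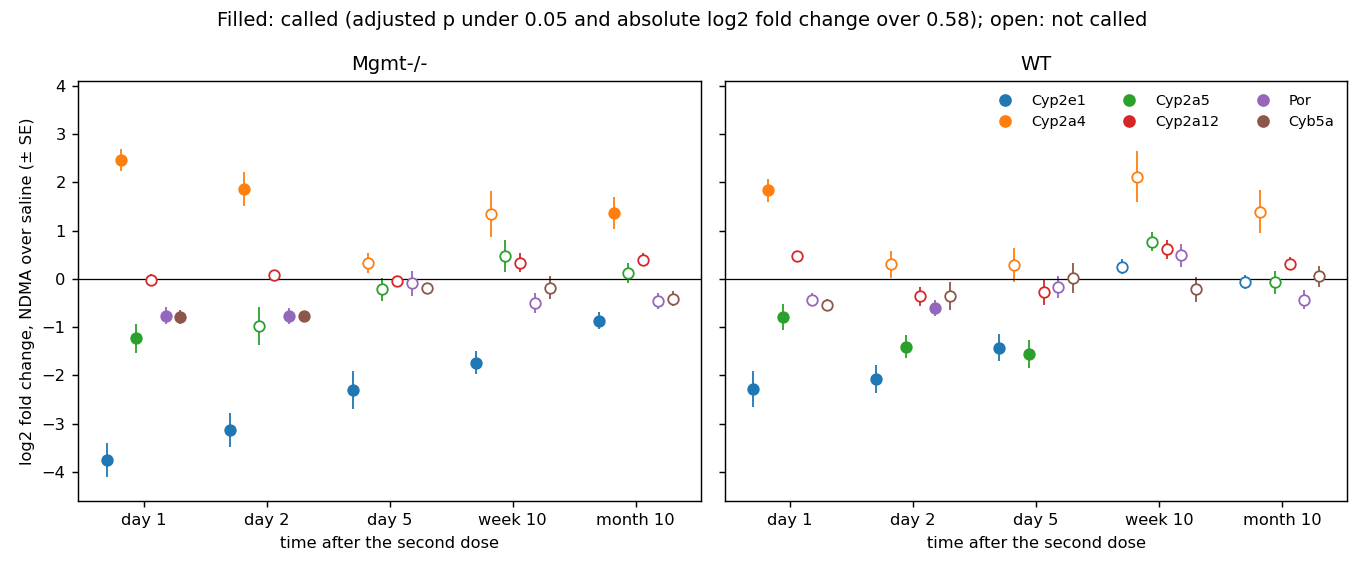
Log2 fold change of NDMA against saline (limma) with its standard error for the 6 genes at each collection, Mgmt-/- and WT in separate panels. Filled points passed both thresholds, 0.05 for the adjusted p and 0.58 for the size of the log2 fold change. Cyp2e1 climbs from -3.76 to -0.86 in Mgmt-/- and from -2.28 to -0.06 in WT, while Cyp2a4, counted apart from Cyp2a5, is above 0 at every collection in both.

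Whether the genotypes differed was tested as a genotype by treatment term in edgeR on the whole reads. At week 10 the Cyp2e1 response was lower in Mgmt-/- than in WT livers by a log2 difference of -1.93 (edgeR quasi-likelihood, adjusted p = 1.5e-05), and so was that of Por, -1.05 (adjusted p = 0.0296). These were 2 of 6 members, against 5.79% of all genes. The genotypes share no library batch at week 10, day 2 or day 5, so batch and genotype cannot be told apart in those terms. Medians of Por there were 339 with NDMA and 519 with saline in Mgmt-/- livers and 189 and 144 in WT livers. The Por term did not pass in limma on log2 reads scaled for depth (-0.96, adjusted p = 0.0716). No member passed at the other collections, where 0.00963%, 3.94%, 2.15% and 1.53% of all genes passed on days 1, 2 and 5 and in month 10. The Cyp2e1 term was -1.71 on day 1 (adjusted p = 0.251) and -0.75 in month 10 (adjusted p = 0.115). At day 5 the Cyp2a5 term was 1.38 (adjusted p = 0.0583), with medians of 165 and 159 in Mgmt-/- livers and 87.6 and 298 in WT livers. In saline mice none of the 6 genes differed between genotypes in edgeR at day 1 (0.00963% of all genes passed, 222 at an unadjusted p under 0.05) or at month 10 (0.0209%, 478 at an unadjusted p under 0.05), and Cyp2e1 differed by 0.26 and -0.09 on the log2 scale.

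The response at week 10 and month 10 was set against that at day 1 in the same genotype. The Cyp2e1 response was less negative by 2.02 at week 10 (limma adjusted p = 0.000725) and 2.91 at month 10 (adjusted p = 1.14e-08) in Mgmt-/- livers. In WT livers it was less negative by 2.54 (adjusted p = 0.00137) and 2.24 (adjusted p = 0.00163). The Cyp2a5 response was also raised, by 1.70 (adjusted p = 0.00955) and 1.33 (adjusted p = 0.0206) in Mgmt-/- and by 1.57 (adjusted p = 0.0225) at week 10 in WT. The Mgmt-/- month 10 value was 1.13 and did not pass with libraries scaled to the same total, and at WT month 10 the difference of 0.75 did not pass (adjusted p = 0.41). The other 4 genes did not pass in any of these 4 terms in the main fit. With libraries scaled to the same total Cyb5a passed at Mgmt-/- week 10 (0.62, adjusted p = 0.0387). Of all genes 5.78% and 9.43% passed in Mgmt-/- and 2.13% and 1.92% in WT.

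In adult livers Cyp2a4 split by sex. In saline mice it was higher in females than in males at Mgmt-/- week 10 (log2 difference 5.89 ± 0.45, limma adjusted p = 2.54e-06) and month 10 (5.64 ± 0.25, adjusted p = 3.9e-13). At WT month 10 the log2 difference was 5.06, and it ran from 4.68 to 7.79 with each library left out in turn. Only batch 200803Eng held both sexes there, and saline D209049 was its only male, so no call is made for that difference. At day 1 the sexes differed by 0.24 in Mgmt-/- and 0.19 in WT, and neither passed. Por was also higher in Mgmt-/- females at month 10 (1.77 ± 0.19, adjusted p = 5.36e-07), and no other member passed. Of all genes 0.273%, 0.629% and 14.5% differed between the sexes in Mgmt-/- saline mice at day 1, week 10 and month 10, and 0.0333% in WT at day 1. The female against male comparison at WT week 10 was not made, since each batch there held 1 sex.

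Cyp2a4 rose with NDMA in adult Mgmt-/- males at both collections, and its counts were also higher in WT males. At week 10 the 4 Mgmt-/- males given NDMA had 74.5, 84.5, 121 and 159, and the 4 given saline had 5.66, 14.8, 16.0 and 18.8. At month 10 the 6 Mgmt-/- NDMA males ran from 26.6 to 351 (median 84.4), and the 5 saline males had 8.69, 10.7, 11.1, 17.5 and 30.5. The groups were apart at week 10 and overlapped at month 10, and the Cyp2a4 log2 fold changes within males were 2.95 ± 0.39 (limma adjusted p = 0.00132) and 2.41 ± 0.51 (adjusted p = 0.0111). The 4 WT males given NDMA had 9.13, 13.7, 21.9 and 24.5 at week 10, while 3 of the 4 saline males were at 0 and the other at 1.10. These rested on 58 reads with NDMA and 1 read with saline, a depth-scaled ratio of 57.2 with an exact 95% interval of 9.87 to 2297 that covers counting error only, and the limma fold change of Cyp2a4 on the log2(count + 1) scale was 3.83 ± 0.65 (adjusted p = 0.0041). The saline males lay below the mean of 5 that a gene needed, so Cyp2a4 was tested only through the NDMA males. That call therefore adds nothing to the counts. At WT month 10 the 7 NDMA males ran from 21.6 to 54.2 (median 36.9), above all 4 saline males at 0, 1.60, 9.49 and 18.9, and the Cyp2a4 difference of 2.92 ± 0.66 did not pass (adjusted p = 0.0722). In batch 200710Eng alone, with 4 of these NDMA males and 3 of the saline males, it was 4.03 and passed (adjusted p = 0.027). Those saline males, at 0, 1.60 and 9.49, also lay below the filter mean without the NDMA males. In batch 200803Eng the NDMA males had 21.6, 22.5 and 32.5, against 18.9 in the only saline male, D209049. The comparisons within a sex were chosen after the data were seen.

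No such rise passed in females. At week 10 the 4 Mgmt-/- females given NDMA had Cyp2a4 at 518, 571, 796 and 921 and the 4 given saline at 443, 698, 719.7 and 1928. At month 10 the 7 Mgmt-/- females given NDMA ran from 869.7 to 1602 (median 1101) and the 7 given saline from 480.2 to 983 (median 874), with 5 of the 7 NDMA females above every saline female. The log2 differences of Cyp2a4 within females were -0.25 and 0.55 at Mgmt-/- week 10 and month 10 and 0.40 and 0.12 in WT, and none passed. Female saline medians of Cyp2a4 were 709 and 874 in Mgmt-/- and 517 and 666 in WT, above the highest male. The sex by treatment term was -3.19 ± 0.55 at Mgmt-/- week 10 (limma adjusted p = 0.0094, with 0.114% of all genes passing) and lost its call without saline male D209001 (-3.37, adjusted p = 0.0682). At Mgmt-/- month 10 the term was -1.86 ± 0.55 (adjusted p = 0.0871, with 0.338% of genes passing), and in WT it was -3.43 (adjusted p = 0.0696) and -2.80 (adjusted p = 0.68), where 0 genes passed. Over both sexes the Cyp2a4 difference was 1.35 ± 0.48 at Mgmt-/- week 10 (adjusted p = 0.0788), 1.36 ± 0.33 at month 10 (adjusted p = 0.00732), and in WT 2.12 (adjusted p = 0.619) and 1.39 (adjusted p = 0.554). The week 10 value in Mgmt-/- passed without NDMA D209031, NDMA D209032 or saline D209027, at 1.51 to 1.67, and with libraries scaled to the same total (1.56, adjusted p = 0.0354), and the month 10 value did not pass with treatment as the only term (1.16, adjusted p = 0.552) or when summed with Cyp2a5 (0.35).

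**Figure D5:**
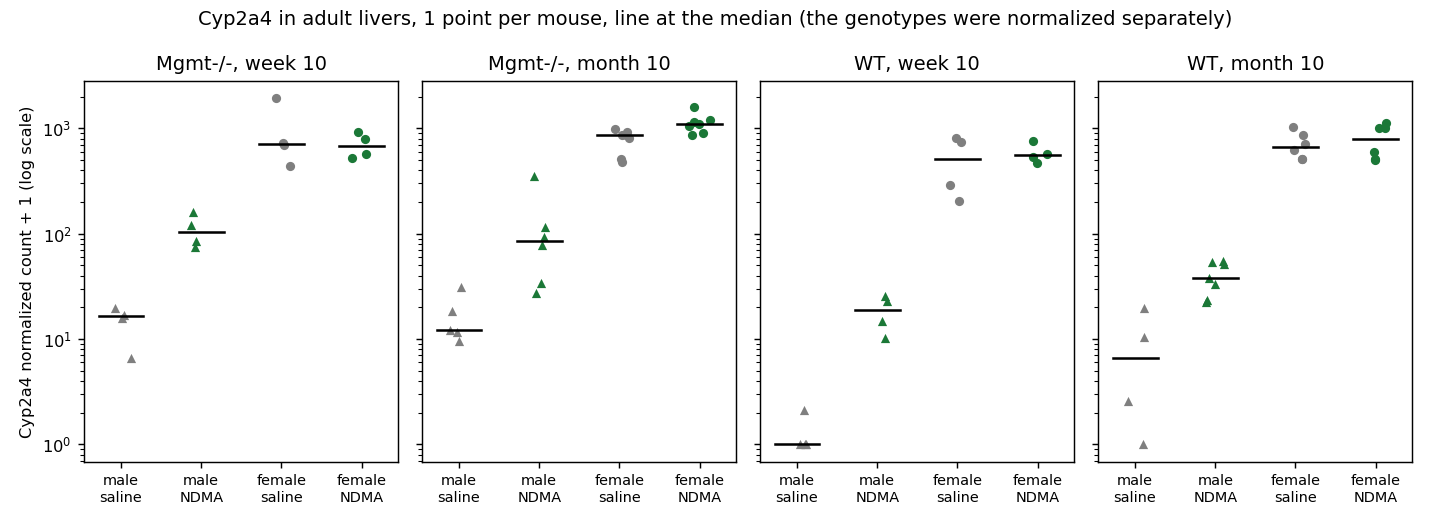
Cyp2a4 normalized read count plus 1 (log axis) in each adult mouse, males and females apart, with saline and NDMA side by side, for Mgmt-/- and WT at week 10 and month 10. Male saline mice lie at or below 30.5 and male NDMA mice between 9.13 and 351, while females lie at 202 or above in either treatment at week 10.

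Within males and females few other members passed. In WT males at week 10 Cyp2a5 rose from 193, 217, 243 and 307 to 363, 453, 557 and 636, groups that did not overlap, and the fold change was 1.05 ± 0.18 on the log2 scale (limma adjusted p = 0.00416). Cyp2a4 and Cyp2a5 were then 2 of the 11 genes of 7816 (0.141%) that passed in WT week 10 males. Cyp2a4 was tested only through its NDMA males, as said above. The other genes that passed included the higher Sult2a7 (3.13), Mknk2 (2.18), Dct, Fam47e and 1810053B23Rik and the lower Socs2 (-1.97), Fabp5 (-1.60) and Csad (-1.46). Por fell in Mgmt-/- females at month 10 from 1412 to 3258 (median 1893) to 853 to 1600.0 (median 1148), which is -0.77 ± 0.20 on the log2 scale (adjusted p = 0.0387). At Mgmt-/- week 10 Cyp2e1 passed in females (-1.82, adjusted p = 1.44e-05) and not in males (-1.66, adjusted p = 0.0727), and that difference between the sexes did not pass as a term. Among all genes 2.02% passed in Mgmt-/- males and 10% in females at week 10, 5.79% and 2.75% at month 10, 0% in WT females at either time and 0.486% in WT males at month 10.

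In saline livers the 6 genes took different courses with age. Cyp2a5 was higher at month 10 than at day 1 by 2.80 ± 0.43 on the log2 scale in Mgmt-/- (limma adjusted p = 1.21e-06) and 3.44 ± 0.53 in WT (adjusted p = 8.16e-07), and already at week 10 in Mgmt-/- (2.23 ± 0.46, adjusted p = 0.000387). Its saline medians in Mgmt-/- livers were 169, 159.9, 159, 840.3 and 1125 from day 1 to month 10, so that the first 3 did not differ beyond their spread. Over both sexes Cyp2a4 was higher at month 10 by 2.84 (adjusted p = 0.0149) and 3.40 (adjusted p = 0.0334), and Por by 1.12 (adjusted p = 0.0049) and 1.43 (adjusted p = 0.001). The Cyp2a4 medians of Mgmt-/- saline mice were 9.49 at day 1 and 874 at month 10 in females and 8.12 and 11.1 in males, and those of WT were 8.05 and 666 in females and 7.47 and 5.55 in males. Por medians in Mgmt-/- were 481 and 1893 in females and 597 and 537 in males, and in WT 293 and 759 in females and 319 and 397 in males. For both genes and in both genotypes the female ranges at day 1 and month 10 did not overlap and the male ranges did, and the change with age was not tested within a sex. Cyb5a was lower by -0.96 (adjusted p = 0.000242) and -1.15 (adjusted p = 1.73e-05), and Cyp2a12 by -0.81 in Mgmt-/- (adjusted p = 0.000357), while its -0.48 in WT did not pass (adjusted p = 0.124). The Cyp2e1 level at month 10 differed from day 1 by 0.04 in Mgmt-/- and 0.72 in WT (adjusted p = 0.924 and 0.298). That WT difference is opposite in sign to the fall of the Cyp2e1 medians over all WT saline mice given above. No other change against day 1 passed in either genotype with batch and sex as covariates. Of all genes 0.0405%, 5.23%, 16.8% and 51.1% passed against day 1 in Mgmt-/- and 0.707%, 0.431%, 9.48% and 48.8% in WT. Batches joined the collections only partly. In WT only batch 200803Eng held saline mice of both day 1 and a later collection, month 10. With batch in the fit, every WT change against day 1 therefore rests on that batch, with 4 saline mice at day 1. Among these 4 was D209074, nearer to NDMA mice in Cdkn1a, with Cyp2e1 at 262 and Cyp2a5 at 28.8. With sex as the only covariate the month 10 changes of Cyp2a12 in Mgmt-/- (-0.20) and of Cyb5a in WT (-0.56) did not pass. The Cyp2a12 change in Mgmt-/- also lost its call with libraries scaled to the same total (-0.57997, just under the fold threshold). With the kidney-like libraries kept it was -0.82 and did not pass (adjusted p = 0.525). With that covariate alone Cyp2a5 passed higher at WT day 2, day 5 and week 10 (1.30, 1.79 and 1.77), Cyp2e1 at Mgmt-/- day 5 (0.76) and Cyp2a4 at Mgmt-/- week 10 (3.37), while Por passed lower at WT week 10 (-1.17), opposite to its month 10 change. Within 1 batch Cyp2a4 passed higher in Mgmt-/- at day 5 (2.24) and week 10 (2.56).

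The genes around these 6 are given by list, with the number that passed. Of the other drug-metabolizing P450s, the number that passed lower from day 1 to month 10 in Mgmt-/- livers was 16 of 32, 16 of 31, 16 of 32, 9 of 33 and 10 of 35, and the number higher was 4, 3, 2, 1 and 3. Their median log2 fold changes were -0.67, -0.79, -0.65, -0.60 and -0.34. In WT livers 3 of 32, 11 of 31 and 6 of 32 passed lower on days 1, 2 and 5 and 4, 1 and 0 passed higher, and none of 33 passed at week 10 or month 10. Cyp1a2, another pericentral P450 that metabolizes aromatic amines and caffeine, fell by -3.50, -3.53 and -1.53 at days 1, 2 and 5 in Mgmt-/- and by -2.42, -2.67 and -1.86 in WT. Cyp2c37 fell at all 5 collections in Mgmt-/- livers (-2.84, -1.24, -1.12, -2.73 and -1.52) and on days 1, 2 and 5 in WT (-1.09, -1.43 and -1.19). Cyp2c69, a female-biased P450, also fell at all 5 in Mgmt-/- (-1.18, -2.21, -3.77, -2.15 and -0.93) and on day 2 in WT (-0.85). Cyp2c67 rose at days 1, 2 and 5 in Mgmt-/- (1.64, 1.73 and 0.85) and at days 1 and 2 in WT (1.97 and 1.08). Cyp2f2, a periportal P450, rose at day 1 and month 10 in Mgmt-/- (0.88 and 0.83) and at day 1 in WT (1.31). Cyp2d9, a male-biased P450, rose at Mgmt-/- day 2, day 5 and month 10 (0.97, 0.71 and 1.05).

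Among other redox partners and haem enzymes, 1, 2, 3, 1 and 2 of the 17 or 18 tested passed lower from day 1 to month 10 in Mgmt-/- livers, and 0, 1, 1, 1 and 0 higher. In WT 2 passed lower at day 1 and none at any later collection. Alad, which makes the pyrrole of haem, fell at days 1, 2 and 5 in Mgmt-/- (-0.66, -0.76 and -0.65). Cyb5b, the cytochrome b5 of the outer mitochondrial membrane, fell from day 2 on (-0.63, -1.32, -0.63 and -0.60). Hmox1, which degrades haem, rose at day 2, day 5 and week 10 (1.27, 1.14 and 1.23), and Cpox, a haem synthesis enzyme, fell at month 10 (-1.07) and at WT day 1 (-0.60). The log2 differences of Hmox2, which also degrades haem, and of Blvra, the biliverdin reductase, did not pass at any collection. Of the 7 genes that clear the aldehyde and the hydrogen peroxide of these reactions, 1, 1, 1, 1 and 2 passed lower and 2, 1, 2, 1 and 1 higher in Mgmt-/- livers from day 1 to month 10. In WT livers 2 passed higher on day 1, 1 passed lower on day 2 and on day 5, and none passed later. Aldh1b1, a mitochondrial aldehyde dehydrogenase, rose at all 5 collections in Mgmt-/- (0.70, 0.96, 0.91, 1.5 and 0.66), and at day 1 in WT (0.74). Aldh1a1, a cytosolic one, rose at day 1 and day 5 in Mgmt-/- (1.52 and 1.36) and at day 1 in WT (1.05), and fell at Mgmt-/- month 10 (-0.61). Aldh2, the main acetaldehyde dehydrogenase, fell at week 10 and month 10 (-0.71 and -0.60). Cat, catalase, fell at day 1 in Mgmt-/- (-0.65) and at day 2 and day 5 in WT (-1.14 and -1.08).

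Of 16 transcription factors known to act on these P450 genes, 4, 4, 1, 6 and 1 passed lower and 2, 2, 3, 1 and 0 higher in Mgmt-/- livers from day 1 to month 10. In WT livers 1 passed lower and 2 higher on day 1, 1 passed higher on day 2, and none passed later. Nr1i3, the CAR receptor for xenobiotics, fell at days 1 and 2, week 10 and month 10 in Mgmt-/- (-0.76, -0.82, -1.20 and -0.62), and Hlf, a clock-linked factor, fell at days 1 and 2 and week 10 (-0.80, -0.65 and -1.07). Ppara, the receptor for fatty acids, fell at the same 3 collections (-0.62, -0.61 and -0.96). Nfe2l2, the NRF2 gene, rose from day 1 to week 10 (1.15, 1.25, 1.16 and 0.91) and at WT day 1 (0.63). Dbp, a clock-driven factor, rose at days 1, 2 and 5 (1.06, 0.72 and 1.02) and at WT days 1 and 2 (0.75 and 1.03), and fell at Mgmt-/- week 10 (-1.07). The log2 differences of Tcf7l2, a nuclear partner of beta-catenin, did not pass at any collection.

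Markers of the pericentral hepatocyte, the cell that holds Cyp2e1, moved with it. In Mgmt-/- livers 10 of 10, 9 of 9, 8 of 9, 5 of 9 and 5 of 11 tested markers fell from day 1 to month 10, and none rose. Their median log2 fold changes were -2.33, -2.70, -1.68, -0.93 and -0.67. In WT livers 8, 8 and 7 of 9 fell on days 1, 2 and 5 (medians -1.34, -1.56 and -1.21), and none passed at week 10 (0.14) or month 10 (-0.28). Their summed level in Mgmt-/- livers at day 1 ran from 1139 to 5876 (median 2087) with NDMA and from 5582 to 16920 (median 11133) with saline. Cyp2c29 was the most abundant, no marker was at 0 in all mice of a group, and Cyp1a2 and Cyp2c29 are on the P450 list as well. Periportal markers moved less, with 2 of 9 lower and 2 higher in Mgmt-/- livers at day 1 (median -0.15), 1 higher on day 2, on day 5 and in week 10, and 2 higher in month 10. In WT livers 3 were higher on day 1 (median 0.26), 2 lower on day 2, 1 lower on day 5 and none later. General hepatocyte markers, of which Alb was the most abundant, passed lower in 3 of 5 in Mgmt-/- at days 1 and 2 and in 1 at day 5 and week 10, with 1 higher at month 10, and in WT 1 was lower at day 2 and none otherwise.

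Markers of other cells moved at the same times. Of 3 T and NK cell markers tested, 3 rose in both genotypes at days 1 and 2, with 3 in Mgmt-/- and 2 in WT at day 5 and 1 of 3 in Mgmt-/- at week 10. Of 6 macrophage markers, 2, 4, 4, 3 and 2 rose in Mgmt-/- livers from day 1 to month 10, and 2 fell on day 1. In WT livers 3, 2 and 1 rose on days 1, 2 and 5, 1 fell on day 1 and on day 2, and none passed later. The most abundant macrophage marker was Lyz2, and the summed macrophage level at Mgmt-/- day 2 had a median of 1812 with NDMA and 802 with saline. Of the few cholangiocyte markers tested, 1 fell at Mgmt-/- days 1 and 5, and 1 of 2 rose at week 10 and month 10 and at WT day 1. Of 5 or 6 stellate and fibroblast markers, 3, 2, 1, 0 and 0 fell and 1, 1, 1, 3 and 2 rose in Mgmt-/- livers from day 1 to month 10, and in WT 2, 1 and 1 fell and 1, 1 and 0 rose on days 1, 2 and 5. Of 4 endothelial markers, 2, 1 and 1 fell and 0, 1 and 1 rose on days 1, 2 and 5 in Mgmt-/-, 1 fell on day 1 in WT, and none passed otherwise. Of 4 proliferation markers tested early, 1, 3 and 2 rose on days 1, 2 and 5 in Mgmt-/-, as did 2 of 2 in week 10 and 1 of 2 in month 10, and none passed in WT. No kidney marker passed the filter on low counts in any comparison. That filter used the mean over both treatments, so a marker low in saline livers could be tested only through its NDMA livers. At Mgmt-/- month 10 Top2a, a proliferation marker, averaged 15.1 with NDMA and 3.88 with saline, under the filter mean of 5. The counts of markers that rose are therefore given as description only. The part of these cell types in the falls of Cyp2e1, Cyp2a5, Por and Cyb5a was not tested.

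Likeness to the members was described by Pearson correlation of log2 levels over all livers of a genotype, which share treatment and age, so no p is given. Over 94 Mgmt-/- livers the genes nearest to Cyp2e1 included Rgn (0.90), Slco1b2 (0.87), Cyp1a2 (0.86) and Sult2a8 (0.84), and over 117 WT livers they were Gstm2 (0.79), Cyp1a2 (0.78), Hsd3b7 (0.77), Aqp9 (0.76) and Rgn (0.76). Rgn encodes a calcium-binding protein. Nearest to Cyp2a5 were Cyp27a1 (0.92), Cyp26a1 (0.89), Ces1f (0.88), Chpt1 (0.88) and Ces3b (0.87) in Mgmt-/- livers, and Cyp27a1 (0.91), Prodh (0.91), Etnk2 (0.88), Chpt1 (0.88) and Oat (0.88) in WT livers. Cyp1a2 and Rgn are among the 5 nearest to Cyp2e1 in both genotypes, and Cyp27a1, a bile acid enzyme, and Chpt1 among those nearest to Cyp2a5.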

How the data were processed

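Gene counts divided by DESeq2 size factors were deposited by the authors as a normalized signal, 1 table per genotype. The authors aligned reads to GRCm38 with STAR and counted 3′ ends with ESAT, with versions not given in the sources used here. Of 214 labelled samples 213 were analysed (117 WT, 96 Mgmt-/-). Whole reads were recovered for 209 libraries within 0.01 of a whole number, and the other 4 were left out of fits on reads.

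NDMA was compared with saline by limma 3.58.1 (trend and robust, R 4.3.3) on log2(normalized count + 1) for genes whose mean was 5 or more, with sex and library batch as covariates and Benjamini-Hochberg adjustment over all genes. Fold changes are on that scale, which understates those of low genes. Terms between genotypes used edgeR 4.0.16 (quasi-likelihood, TMM) on recovered reads, and DESeq2 1.42.0 was an alternative. Terms of an interaction were called at an adjusted p under 0.05 alone. Correlations were tested with scipy 1.17.1. The fits were tested on simulated data.

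Genes named are the 6 members, from each of 4 lists (other P450s, redox and haem, aldehyde and peroxide clearance, transcription factors) those with the lowest and highest mean Mgmt-/- fold change, and the 5 nearest to Cyp2e1 and Cyp2a5. The other genes of the WT week 10 male comparison were named after their values were seen. Some genes that these rules name are not reported here. Members and lists were chosen with earlier results of these data known. Each library is 1 mouse. Per the study's methods whole litters were assigned to a treatment and mice of several litters were used where possible, but the labels do not tie mice to litters, so litter could not enter the fits.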

Additional observations from a re-analysis of the deposited data

Results flagged for a closer look

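The 6 genes were each examined in the groups of 4 to 10 mice, which makes 78 combinations of gene and group. In 10 of them 1 mouse lay far from the rest, where chance flags about 1 in 20, or 3.9. The 3 WT NDMA females under 300000 reads gave 5 of them. Cyb5a was lowest at 1304 in D215006 at day 2 (nearest mouse 5343) and at 1561 in D215022 at week 10 (nearest 6367). Cyp2a12 was highest at 2377 in D215006 (nearest 1222), at 2574 in D215014 at day 5 (nearest 1255) and at 2690.0 in D215022 (nearest 1339). The fourth such library, D215030 at month 10, had Cyb5a at 1112 and Cyp2a12 at 2081, the lowest and the highest of its group. The part of depth in this was not tested.

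The other flags of single mice were Cyp2a12 at 3891 in NDMA female D209032 (nearest 3054), Cyb5a at 1983 in saline male D209001 (nearest 6902) and Cyp2a4 at 1928 in saline female D209027 (nearest 719.7), all Mgmt-/- at week 10. In WT they were Cyp2a4 at 46.4 in saline D215004 at day 2 (nearest 26.1), a library with Cdkn1a at 212, and Cyb5a at 6453 in saline female D215028 at month 10 (nearest 4260.1).

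Responses differed between groups for Cyp2e1 (-1.93) and Por (-1.05) by genotype at week 10, and for Cyp2a4 by sex at Mgmt-/- week 10 (-3.19). Against day 1, the Cyp2e1 response differed by 2.02 at week 10 and 2.91 at month 10 in Mgmt-/- and by 2.54 and 2.24 in WT, and the Cyp2a5 response by 1.70 and 1.33 in Mgmt-/- and by 1.57 at week 10 in WT.

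Kap was at 6147 and 7562 in the 2 Mgmt-/- saline libraries left out at day 5, and at most 13.891 in any other.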

How the results depend on the processing

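No paired analysis was possible because each mouse has its own replicate code and no code is shared between groups. Over the alternatives, 1235 values kept their direction and their side of the threshold, 32 dropped below it, 29 rose past it, 26 counts or values moved and 5 reversed. A change of sign with neither value past the threshold, seen 59 times, counts as kept. Counts of members under the alternatives below come without the share of all genes that passed, except within 1 sex, where it stands above. They are therefore not read as results about the members. The fits on 1 other batch, on 1 sex in adults, the WT sex by treatment term and r without the libraries of mismatched sex were chosen after seeing the data.

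All 5 reversals are Cyp2a4 summed with Cyp2a5: -0.29 and -0.21 in Mgmt-/- at days 1 and 2, and -0.084, -1.06 and -1.29 in WT at days 1, 2 and 5. With the kidney-like libraries 0 members passed at Mgmt-/- day 5 (Cyp2e1 -0.64), and 0 for saline at Mgmt-/- week 10 against day 1. Scaling to the same total moved the median of all genes by 0.187, 0.165, 0.147 and 0.201 in Mgmt-/- at days 1, 2 and 5 and week 10, and gave 2 members at Mgmt-/- week 10, 1 for the Mgmt-/- month 10 response against day 1, and r = -0.66 between Cyp2e1 and Cdkn1a in Mgmt-/- (permutation p = 0.0323, with rho = -0.35, permutation p = 0.268). With treatment as the only term 1 member passed at Mgmt-/- month 10 and 1 at WT day 5, where Cyp2e1 no longer passed (-1.31).

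In 1 sex, 1 member passed at Mgmt-/- month 10 in males and 1 in females (Cyp2e1 -0.86 and -0.87, neither passing), 2 passed in WT males at week 10, and Cyp2e1 did not pass in Mgmt-/- males at week 10 (-1.66). In 1 batch, 0 members passed at WT day 1 in 200803Eng (Cyp2e1 -1.29). None passed in 200724Eng at WT day 2 (Cyp2e1 -2.12) or day 5 (-1.05). In 200710Eng 4 passed at WT day 5, 2 at week 10 and 1 at month 10. That week 10 fit is the same as the fit of WT males, since 200710Eng held all males there. Of its 2 members 1 was Cyp2a4, as was the 1 at month 10. In both fits Cyp2a4 was tested only through the NDMA males, so these calls add nothing to its counts. Saline over time with sex alone gave 1 member at Mgmt-/- day 5 and WT days 2 and 5, and 2 at week 10 in either genotype, and within 1 batch it gave 1 at Mgmt-/- day 5 and 2 at week 10. The genotype term gave 1 member at day 5 with RLE size factors and with a mean of at least 20 reads, and 1 at week 10 with limma on log2 reads scaled for depth. A pseudocount of 5 gave 1 member for sex in Mgmt-/- saline at day 1.

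With each library left out in turn, the number of members that passed ranged between 1 and 2 at Mgmt-/- week 10 (1 with all libraries), 0 and 1 for sex in Mgmt-/- saline at day 1 (0 with all) and 0 and 1 for the sex by treatment term at Mgmt-/- week 10 (1 with all, 0 without saline D209001). It ranged between 4 and 5 at Mgmt-/- day 2 (4 with all), between 2 and 3 at WT days 1 and 2 (3 with all) and between 2 and 3 for sex in Mgmt-/- saline at month 10 (2 with all). The Cyp2e1 fall kept its call in all of these fits, with -3.98 to -3.67, -3.32 to -3.01, -2.54 to -2.06, -1.86 to -1.59 and -0.93 to -0.78 in Mgmt-/- from day 1 to month 10 and -2.49 to -2.18, -2.34 to -1.94 and -1.67 to -1.31 in WT at days 1, 2 and 5.

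Depth limits Cyp2a4 in adult males, since WT males given saline had 1 read of it over 4 libraries at week 10.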

Other observations

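Other genes known to differ by sex in mouse liver were looked at in adults, from lists written after the data were seen. In Mgmt-/- females given NDMA, female-biased genes passed lower in 7 of 14 tested and higher in 2 at week 10 (median log2 fold change -2.64), and lower in 9 of 14 and higher in 1 at month 10 (median -1.96). Male-biased genes in the same females passed higher in 4 of 12 and lower in 3 at week 10, and higher in 3 of 9 at month 10. In Mgmt-/- males female-biased genes passed in 0 of 5 at week 10 and lower in 1 of 6 at month 10, and male-biased genes passed lower in 3 of 14 at week 10 and, at month 10, higher in 3 and lower in 1 of 14. In WT females limma called none of either list, and in WT males 1 male-biased gene of 13 passed higher at month 10 and no other gene passed. Among all genes the adult comparisons within WT females gave 0 calls.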
